A study of Mus musculus with 12 samples.

Results

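Stefin A genes encode small inhibitors of papain-type cysteine proteases, and 6 of them in the mouse, Stfa1, Stfa2, Stfa3, Stfa2l1, Cstdc5 and Csta3, were followed through ear skin injected with IL-17A, IL-36γ or both. All 6 were found among the 50684 Ensembl genes of the count table (Cstdc5 under the older name BC100530 and Csta3 under Gm5416), and all 6 were among the 19408 genes with enough reads to be tested. The genes were selected on expression values of these same libraries: Stfa1, Stfa2, Stfa3, Cstdc5 and Csta3 stood in a heat map of genes chosen by their variation across the 12 libraries, and Stfa2l1 came from a list of neutrophil genes. Their levels and changes are therefore given as a description. The counts of calls printed for them place them in a fit of all genes, are no test of the 6 genes, and nothing is read from them.

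RNA-Seq was performed on ear tissue of 12 C57BL/6 mice, 8 weeks old, with 3 mice in each of 4 groups. The ear pinnae received intradermal injections of PBS alone (the control), of IL-17A, of IL-36γ, or of IL-17A and IL-36γ together, with 1 µg of each cytokine in 5 µl PBS, and the ears were taken after 4 days. The labels name no engineered allele, and 3 of the 5 mice of each group were sequenced. A library held between 25293468 and 34759293 reads counted to genes, so that values are given as CPM, reads scaled to a common library size of 1000000 after correction for library composition. Only part of each ear went into RNA. Ear tissue contains epidermis, dermis, cartilage and infiltrating blood cells, and in such bulk RNA fewer cells of a type and less RNA per cell cannot be told apart.

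Stefins, also called type 1 cystatins, lie inside the cell and bind the active site of cathepsins such as cathepsin B, H, L and S. Humans have a single stefin A gene, CSTA, whose protein is part of the cornified envelope of the epidermis, whereas the mouse carries a row of duplicated copies. The mouse copies are known for their expression in neutrophils and their precursors as well as in keratinocytes of stimulated epidermis, so both cell types of the ear are potential sources.

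The 6 genes lie on chromosome 16 within 298.6 kb (chr16:36156811-36455392, GRCm38). In order of coordinates they are Stfa2l1, Csta3, Stfa1, Cstdc5, Stfa2 and Stfa3, the first 3 on the plus strand and the last 3 on the minus strand. The same stretch holds Cstdc4, Csta2 and Cstdc6, and Csta1 lies beside it. The copies fall into closely related pairs: the coding sequences of Stfa1 and Cstdc5 were identical at 97.9% of aligned bases and those of Stfa2 and Stfa2l1 at 96.4%, whereas Stfa3 reached at most 83.7% with any of the others. Csta3 was closest to Cstdc5, with 89.7%.

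The promoters are shown because the start regions of the 6 genes share sequence that is rare elsewhere. The runs were picked because all 6 promoters hold them, and their part in the expression was not tested. RefSeq (GRCm38.p6) provided 300 bases for each gene, 250 before and 50 after the start of the transcript. A run of 13 bases, ACCTTTAAAACCC, stood in all 6 promoters, and in 9 of the 32851 mouse promoters in the table. A run of 17 bases, GGATCATTTCTTCTCAG, was found in the promoters of these 6 genes and in none of the others listed. No promoter was listed under the name Cstdc6, so neither run could be looked up for that copy. The stretches around both runs are printed 5′ to 3′ on the strand of each gene, with the runs in capitals; the line of Cstdc5 ends 30 bases past its RefSeq start and therefore inside the second run. Cstdc4, a copy that was not among the 6, is added for comparison and carried the first run only.
Stfa1: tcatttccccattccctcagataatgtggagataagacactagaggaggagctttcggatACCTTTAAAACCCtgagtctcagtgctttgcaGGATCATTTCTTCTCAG
Cstdc5: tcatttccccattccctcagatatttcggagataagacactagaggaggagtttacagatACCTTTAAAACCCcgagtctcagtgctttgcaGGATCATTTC
Csta3: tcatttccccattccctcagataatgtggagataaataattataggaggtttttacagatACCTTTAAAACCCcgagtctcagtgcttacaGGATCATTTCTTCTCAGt
Stfa3: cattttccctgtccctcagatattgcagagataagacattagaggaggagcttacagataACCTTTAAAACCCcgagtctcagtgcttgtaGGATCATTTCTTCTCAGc
Stfa2: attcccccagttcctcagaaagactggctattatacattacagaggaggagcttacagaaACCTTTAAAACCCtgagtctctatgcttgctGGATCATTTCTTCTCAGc
Stfa2l1: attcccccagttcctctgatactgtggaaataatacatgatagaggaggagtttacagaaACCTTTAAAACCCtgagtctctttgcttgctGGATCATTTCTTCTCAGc
Cstdc4: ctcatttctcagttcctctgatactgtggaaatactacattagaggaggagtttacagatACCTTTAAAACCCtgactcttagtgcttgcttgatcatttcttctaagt

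The printed stretches lie at chr16:36277055-36277163 for Stfa1, chr16:36367541-36367642 for Cstdc5, chr16:36210263-36210371 for Csta3, chr16:36455378-36455486 for Stfa3, chr16:36408347-36408455 for Stfa2, chr16:36156715-36156823 for Stfa2l1 and chr16:36184120-36184228 for Cstdc4. The pair Stfa2 and Stfa2l1 was identical at 90.5% of the aligned promoter bases and the pair Stfa1 and Cstdc5 at 83.8%. Short motifs of factors that act downstream of cytokines were searched on both strands of the 300 bases. The C/EBP letters TTGCNNAA were present in Stfa1, Cstdc5 and Csta3, and in 10.8% of all promoters. The AP-1 letters TGANTCA were present in Stfa3 alone of the 6, and in 7.81% of all promoters. None of the 6 held the STAT letters TTCNNNGAA (8.3% of all promoters), the last 9 of 10 NF-kB letters, GGANTTTCC (1.25%), or the TATA letters TATAAA (13.6%). Only these exact letters were searched, so related forms were not counted. A match is a description of letters and not of binding.

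In PBS-injected ears the stefin A genes were barely expressed in 2 of the 3 mice. Cstdc5 had 52, 507 and 12 reads in PBS mice 1, 2 and 3, which corresponds to 1.44, 14.4 and 0.364 CPM. Stfa3 had 74, 205 and 25 reads, and Stfa1 had 16, 155 and 3 reads. The remaining genes were close to absent, with 9, 42 and 0 reads of Stfa2, 0, 13 and 1 reads of Stfa2l1, and 0, 23 and 0 reads of Csta3. Mouse 2 was the highest of the PBS group for all 6 genes, and its summed level of 26.8 CPM lay above the 4.18 and 1.24 CPM of the other mice.

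IL-17A raised the mean level of all 6 genes, but unevenly between mice. Cstdc5 reached 282, 17.5 and 53.1 CPM in IL-17A mice 1, 2 and 3. Stfa3 reached 102, 8.44 and 27.2 CPM, and Stfa1 reached 62.1, 5.35 and 12.8 CPM. In these 3 genes the lowest IL-17A mouse lay only 1.22-fold (Stfa1 and Cstdc5) or 1.45-fold (Stfa3) above the highest PBS mouse. Stfa2 was measured at 26.1, 0.432 and 1.17 CPM, and Csta3 at 6.46, 0.432 and 0.402 CPM, so that both genes overlapped with the PBS group. Stfa2l1 was measured at 1.99, 0.399 and 0.603 CPM, just above the 0.368 CPM of the highest PBS mouse. IL-17A mouse 1 was the highest of its group for all 6 genes, with a summed level of 480 CPM against 32.6 and 95.3 CPM.

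IL-36γ alone brought the genes to levels that did not overlap with those of PBS, which held for 22.4% of all tested genes. Cstdc5 stood at 363, 503 and 276 CPM in IL-36γ mice 1, 2 and 3. Stfa3 stood at 256, 333 and 145 CPM, and Stfa1 at 78.3, 133 and 61.7 CPM. The less expressed genes followed, with 11.2, 20.8 and 4.61 CPM of Stfa2, 8.75, 16.1 and 3.99 CPM of Csta3, and 1.30, 2.10 and 1.52 CPM of Stfa2l1. Mouse 2 was the highest of the IL-36γ group for all 6 genes.

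The highest levels were found after injection of IL-17A + IL-36γ. Cstdc5 reached 1168, 810 and 738 CPM in mice 1, 2 and 3, from 29929, 22146 and 22060 reads. Stfa3 reached 437, 495 and 378 CPM, and Stfa1 reached 356, 222 and 224 CPM. Stfa2 stood at 48.5, 24.0 and 23.9 CPM, Csta3 at 29.6, 25.1 and 20.9 CPM, and Stfa2l1 at 7.37, 3.18 and 3.91 CPM. For each of the 6 genes, every mouse of this group lay above every mouse of the IL-36γ group. Such separation held for 9.33% of all tested genes, and none of the 6 was called against IL-36γ. Together the 6 genes made up 0.197%, 0.156% and 0.138% of all counted reads in the IL-17A + IL-36γ group, compared with 0.00295% or less in PBS ears.

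**Figure D1:**
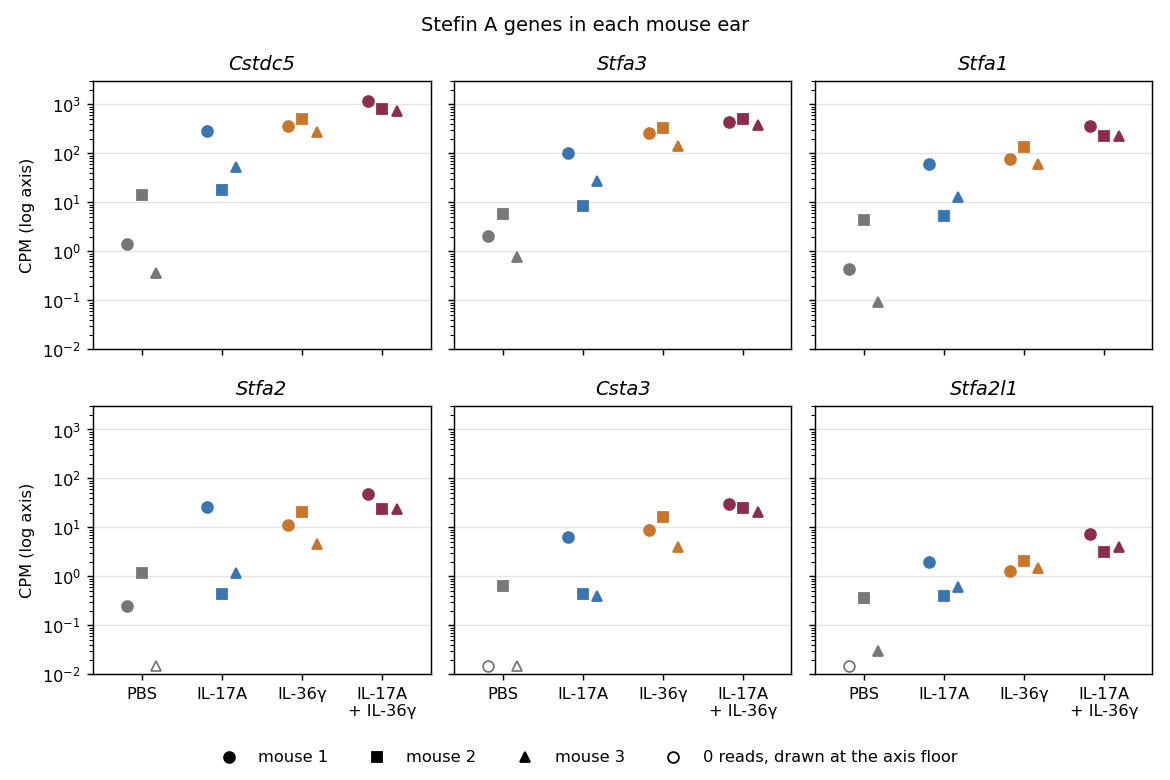
CPM of each of the 6 stefin A genes in each mouse (log axis), with 1 symbol per mouse number and libraries without a read drawn open at the axis floor. PBS mouse 2 and IL-17A mouse 1 stand above the other mice of their group in all 6 panels. The 3 mice of the IL-17A + IL-36γ group lie above all IL-36γ mice, which held for 9.33% of all tested genes.

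The spread between mice narrowed from the PBS and IL-17A groups to the groups with IL-36γ. For Cstdc5 the highest PBS mouse was 39.5-fold above the lowest, and the corresponding range was 16.1-fold with IL-17A, 1.83-fold with IL-36γ and 1.58-fold with both cytokines. For Stfa3 these ranges were 7.66-fold, 12.1-fold, 2.30-fold and 1.31-fold. Stfa2 was the most variable gene after IL-17A, with a range of 60.3-fold between mice 1 and 2. The reads behind the PBS values are few, and their counting error alone is large for Stfa2, Stfa2l1 and Csta3.

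Fold changes were estimated with edgeR in 1 model of the 12 libraries, as log2 values with a standard error (SE), and a gene was called at an adjusted p-value below 0.05 together with an absolute log2 fold change above 1. After IL-17A the log2 fold changes of the 6 genes against PBS ranged from 2.85 to 4.44. Cstdc5 (4.44, SE 1.11), Stfa1 (4.01, SE 0.989) and Stfa3 (3.99, SE 0.836) were called, that is 3 of 6, where 1.07% of all tested genes were called higher. Stfa2 (4.23, SE 1.39), Csta3 (3.44, SE 1.26) and Stfa2l1 (2.85, SE 0.882) did not pass. In 4 of the 6 genes every IL-17A mouse exceeded every PBS mouse, which held for 19.6% of all tested genes. No gene was called after IL-17A (0 of 6) when IL-17A mouse 1 or PBS mouse 3 was left out. Without PBS mouse 3 the log2 fold changes stayed at 3.89 for Cstdc5, 3.46 for Stfa1 and 3.54 for Stfa3. Without IL-17A mouse 1 the log2 fold change was 2.67 for Cstdc5, 2.40 for Stfa1 and 2.58 for Stfa3, but 0.64 for Stfa2 and 0.88 for Csta3. Without PBS mouse 2, by contrast, 4 genes were called and the log2 fold change of Cstdc5 was 6.99.

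After IL-36γ all 6 genes were called higher than in PBS, where 5.11% of all tested genes were called higher. The log2 fold change was 6.40 (SE 0.902), which is 84.6-fold, for Stfa3, 6.14 (SE 1.19) for Cstdc5 and 5.78 (SE 1.02) for Stfa1, so that these 3 genes differed by less than their SE. Without PBS mouse 2 the values were 7.42 for Stfa3, 8.69 for Cstdc5 and 8.35 for Stfa1, and their order changed. Csta3 rose by 5.43 (SE 1.16), Stfa2 by 4.64 (SE 1.38) and Stfa2l1 by 3.58 (SE 0.828). The groups did not overlap for any of the 6 genes, which held for 22.4% of all tested genes. The nearest approach of the groups was in Stfa2l1, in which the lowest IL-36γ mouse was 3.53-fold above the highest PBS mouse, and in Stfa3 this distance was 24.9-fold. Leaving out single libraries left 5 or 6 of the genes called.

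After IL-17A + IL-36γ all 6 genes were again called higher than in PBS, beside 7.35% of all tested genes. The log2 fold change was 7.39 (SE 1.25) for Cstdc5, 7.33 (SE 1.07) for Stfa1, 7.24 (SE 0.930) for Stfa3, 6.81 (SE 1.15) for Csta3, 6.03 (SE 1.39) for Stfa2 and 5.12 (SE 0.783) for Stfa2l1. These values correspond to 167-fold, 161-fold, 151-fold, 112-fold, 65.5-fold and 34.9-fold. Their median was 7.03, whereas the median over all tested genes was -0.03. The denominator of each fold change is set by the PBS libraries, and above all by PBS mouse 2, so the distance between the groups is given as well. Without PBS mouse 2 the log2 fold change was 9.95 for Cstdc5, 9.92 for Stfa1 and 8.27 for Stfa3. The lowest mouse of the combination was 65.2-fold above the highest PBS mouse for Stfa3, 51.4-fold for Cstdc5, 50.7-fold for Stfa1, 32.1-fold for Csta3, 20.1-fold for Stfa2 and 8.65-fold for Stfa2l1. Groups without overlap in this direction were found for 27.0% of all tested genes. The 6 genes remained called whichever single library was left out.

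The combination was also compared with each cytokine alone. Against IL-17A, 5 of 6 genes were called higher, beside 4.46% of all tested genes, with log2 fold changes of 3.38 (SE 0.881) for Csta3, 3.32 (SE 0.841) for Stfa1, 3.25 (SE 0.748) for Stfa3, 2.95 (SE 0.999) for Cstdc5 and 2.27 (SE 0.613) for Stfa2l1. Stfa2 had a log2 fold change of 1.80 (SE 1.04) and overlapped with the IL-17A group through IL-17A mouse 1. In 5 of 6 genes the groups did not overlap, which held for 23.0% of all tested genes. The count fell to 3 without IL-17A mouse 2, without IL-17A mouse 3 or without mouse 1 of the combination.

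Against IL-36γ none of the 6 genes was called. In edgeR 0% of all tested genes were called higher and 2 genes were called lower, although 2938 of the 19408 had an unadjusted p-value below 0.05 in either direction. The log2 fold changes were 1.55 (SE 0.779) for Stfa1, 1.55 (SE 0.574) for Stfa2l1, 1.39 (SE 1.01) for Stfa2, 1.39 (SE 0.782) for Csta3, 1.25 (SE 0.941) for Cstdc5 and 0.84 (SE 0.686) for Stfa3. Although no call was made, the 3 mice of the combination lay above the 3 IL-36γ mice in 6 of 6 genes, which held for 9.33% of all tested genes. The distance was small, from 1.14-fold for Stfa3 to 1.67-fold for Stfa1. DESeq2 likewise called 0 of the 6, and in edgeR 1 of the 6 had an unadjusted p-value below 0.05.

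**Figure D2:**
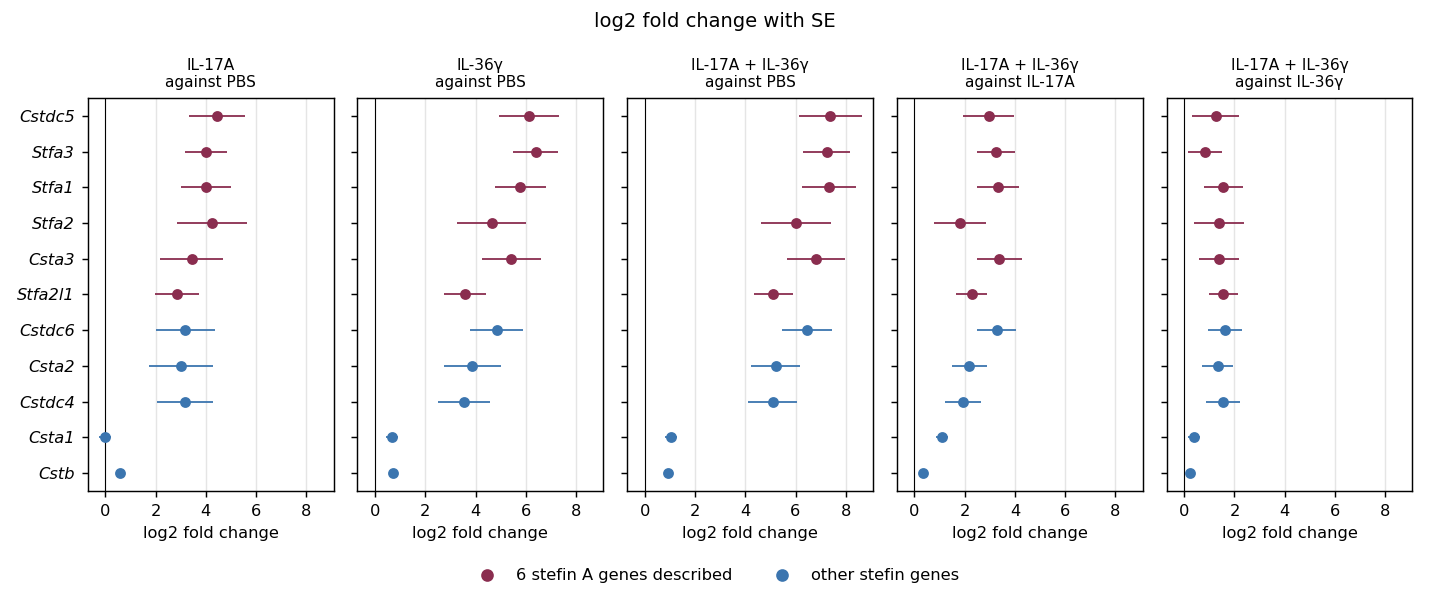
log2 fold change (points) with SE (bars) of the 6 stefin A genes and of 5 other stefin genes in the 5 comparisons. The 6 genes lie between 5.12 and 7.39 after IL-17A + IL-36γ against PBS, while Csta1 and Cstb lie at 1.06 and 0.93.

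Whether IL-17A acted differently in the presence of IL-36γ was read on both scales. On the log2 scale the change by IL-17A was smaller with IL-36γ than without it for all 6 genes, by -3.19 (SE 1.39) for Cstdc5, -3.15 (SE 1.06) for Stfa3, -2.84 (SE 1.74) for Stfa2, -2.45 (SE 1.24) for Stfa1, -2.05 (SE 1.53) for Csta3 and -1.30 (SE 1.08) for Stfa2l1. In edgeR 0 of these interactions were called (2 at an unadjusted p-value below 0.05, and 0 called with DESeq2), beside 0.551% of all tested genes, and without IL-17A mouse 1 the sign turned for Stfa2 (0.76) and Csta3 (0.51). On the linear scale the combination exceeded the sum of the separate changes. Cstdc5 gained 899.8 CPM over PBS with both cytokines, compared with 487 CPM for the sum of the single cytokines, which leaves an excess of 413 CPM (SE 170). The excess was 151 CPM (SE 52.2) for Stfa1, 149 CPM (SE 70.3) for Stfa3, 13.4 CPM (SE 4.76) for Csta3, 11.2 CPM (SE 12.7) for Stfa2 and 2.32 CPM (SE 1.41) for Stfa2l1. The excess of Stfa2 was thus smaller than its SE.

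The genes differed in level by about the same order in every group. Compared per kilobase of exon, Cstdc5 (1146 ± 292 CPM per kb, SD, n = 3) and Stfa3 (1060 ± 142) were the most abundant in the combination and did not differ beyond their spread. Stfa1 followed with 377 ± 108, then Csta3 with 85.6 ± 14.8 and Stfa2 with 68.2 ± 30.2, which again did not differ beyond their spread, and Stfa2l1 was lowest with 11.5 ± 5.35. In the IL-36γ group Stfa3 (594 ± 230) and Cstdc5 (482 ± 145) exchanged places within their spread. In PBS all levels per kilobase were below 7, with an SD close to or above the mean.

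The shares of the 3 most expressed genes in the stefin A reads kept the same order in the cytokine groups. The share of Stfa3 varied, from 21.3% to 35.6% over the 9 cytokine-injected mice, and its mean was highest with IL-36γ. Cstdc5 supplied 56.1% ± 2.4 (SD, n = 3) of the reads of the 6 genes in IL-17A ears, 52.1% ± 3.4 in IL-36γ ears and 53.8% ± 3.0 in the combination. Stfa3 supplied 25.2% ± 3.6, 32.7% ± 3.1 and 26.6% ± 5.0, and Stfa1 supplied 14.2% ± 1.9, 12.2% ± 1.2 and 15.9% ± 1.7. Relative to their size, the shares of the less expressed genes varied more over these mice. They ranged from 0.937% to 5.43% for Stfa2, from 0.422% to 1.59% for Csta3 and from 0.181% to 1.22% for Stfa2l1. Stfa2 was highest in IL-17A mouse 1 and lowest in IL-36γ mouse 3, which had similar summed levels of 480 and 492 CPM. The PBS shares rest on 151, 945 and 41 reads and varied more, from 29.3% to 53.7% for Cstdc5.

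**Figure D3:**
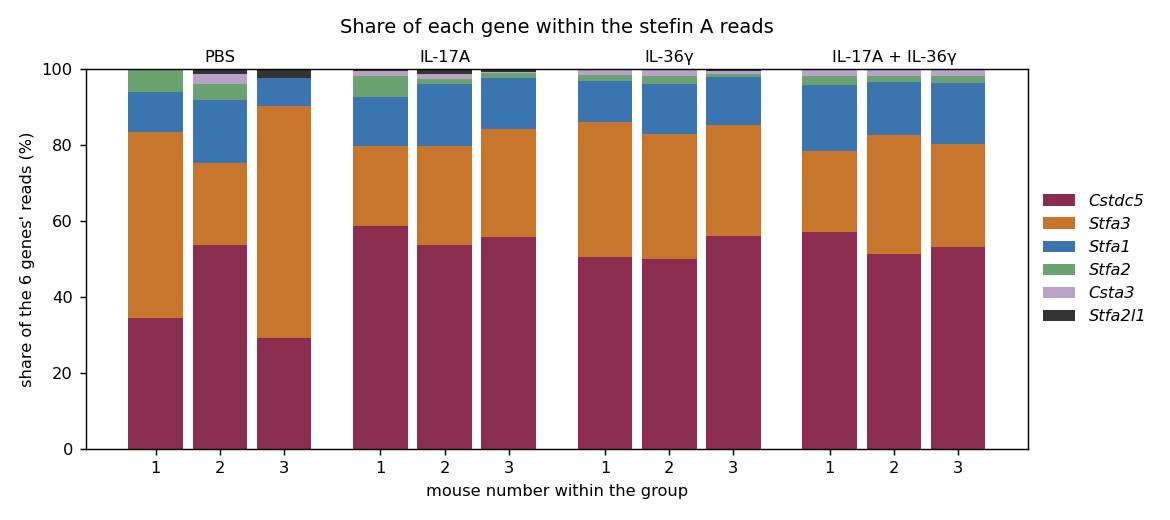
Share of each gene among the reads of the 6 stefin A genes (percent), 1 bar per mouse. Cstdc5 takes between 49.9% and 58.6% in the 9 cytokine-injected mice, and the PBS bars rest on 41 to 945 reads.

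Reads of near-identical copies can be assigned to the wrong gene. Of the windows of 76 bases, the read length, in the transcripts, 21.9% of Cstdc5 also occurred in Cstdc6 or Stfa1, 7.97% of Stfa1 in Cstdc5, 7.27% of Stfa2l1 in Stfa2 or Gm49652, and 5.56% of Stfa2 in Stfa2l1. Stfa3 and Csta3 shared no such window, and their reads were not subject to this overlap between annotated transcripts. The reads of Stfa1 stood at 21.6% to 30.8% of those of Cstdc5 in all 12 libraries, whereas the reads of Stfa2 ranged from 108% to 1310% of those of Stfa2l1 over the 9 cytokine-injected mice. The annotated gene Gm15845 runs antisense across 679 bases of Cstdc5, and it held at most 19 reads in a library.

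Over the 12 libraries the 6 genes moved together. The correlation of log2 CPM between any of the 15 pairs lay between r = 0.944 (Stfa2 with Stfa2l1) and r = 0.998 (Stfa1 with Cstdc5). After the group means were subtracted, which leaves the differences between mice of a group, r still lay between 0.774 (Stfa3 with Stfa2l1) and 0.997 (Stfa1 with Cstdc5). These are descriptions over 12 libraries that share depth and composition between genes, and part of the reads of the latter pair cannot be told apart.

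Among the genes outside the 6, those with a pattern like their mean log2 CPM over the 12 libraries included Krt6b (r = 0.994), a keratin of activated epidermis. Krt16 (r = 0.993), its usual partner in hyperproliferative epidermis, Tlr13 (r = 0.993), a sensor of bacterial RNA, and Fpr2 (r = 0.992), a formyl peptide receptor of neutrophils, were also among the 5 most alike. Taken singly, Stfa1 (r = 0.997) and Stfa2l1 (r = 0.984) were closest to Fpr2, and Cstdc5 (r = 0.994) was closest to Krt6b. Stfa3 was closest to the leukocyte integrin gene Itgb2 (r = 0.994), and Stfa2 to the epithelial transcription factor gene Elf3 (r = 0.988). Both leukocyte and keratinocyte genes were therefore among the most alike.

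The markers of these cell types were read beside the stefin A genes. The 9 mature neutrophil markers (Ly6g, Cxcr2, Csf3r, Retnlg, Cd177, Mmp8, Fpr1, Fpr2 and Trem1) summed to 8.03 to 16.2 CPM in PBS ears, 22.5 to 62.5 with IL-17A, 61.3 to 92.0 after IL-36γ and 106 to 214 after both. In the edgeR test 4 of the 9 were called higher with IL-17A, 8 with IL-36γ and 9 with the combination, and 0 (5 at an unadjusted p-value below 0.05) in the combination against IL-36γ. Of all tested genes 1.07%, 5.11%, 7.35% and 0% were called higher in these comparisons. Ly6g, the defining marker, had 0 reads in all PBS ears and in IL-17A mouse 2, and 22, 15 and 18 reads after both cytokines. Outside the combination it had at most 7 reads, so it had enough reads to be tested only through that group. Granule genes of neutrophil precursors (Mpo, Elane, Prtn3, Ctsg, Camp, Ngp and Ltf) stayed between 1.50 and 4.43 summed CPM in all 12 libraries, and Elane was at 0 in 10 of them. Of these 7 genes 2 were tested, and Ctsg was called lower after both cytokines (-1.11, SE 0.381, adjusted p = 0.0328, edgeR). The other, Ltf, the gene of lactoferrin, was called lower after IL-36γ (-2.65, SE 0.805, adjusted p = 0.029, edgeR). It went from 0.429 ± 0.342 CPM (SD, n = 3, range 0.194 to 0.821) to 0.0641 ± 0.0286 CPM (range 0.0344 to 0.0914). In IL-36γ mouse 1 a single read amounted to 0.0333 CPM, so this fold rests on very few reads and its size is uncertain. Ltf was not called after both (-0.62, SE 0.626, adjusted p = 0.445, edgeR). Among the genes too low to test, mean Ngp rose from 0.00923 CPM in PBS ears to 0.187 CPM after IL-36γ and 0.298 CPM after both. Its highest library held 0.546 CPM. The means of Mpo and Camp were lower than in PBS in these 2 groups. Those of Elane and Prtn3 were lower after IL-36γ and higher after both.

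The 8 activated keratinocyte genes (Krt6a, Krt6b, Krt16, Krt17, Sprr1a, Sprr1b, Tgm1 and Tgm3) summed to 532 to 748 CPM after PBS, 829 to 2570 after IL-17A, 2440 to 6070 after IL-36γ and 6900 to 11500 after both. Against PBS 0 (4 at an unadjusted p-value below 0.05), 5 and 5 of the 8 were called higher in edgeR, beside 1.07%, 5.11% and 7.35% of all tested genes. The 6 epidermal markers (Krt5, Krt14, Krt1, Krt10, Lor and Flg) summed to 11900 to 17900 CPM in PBS ears and 29300 to 35300 CPM after both, and none was at 0 in any library. In the combination against PBS 3 of these 6 were called higher in edgeR, beside 7.35% of all tested genes. They were Krt1 (4.21, SE 0.426), Flg (2.03, SE 0.483) and Krt14 (1.38, SE 0.183). Krt5 (0.87, SE 0.128) was below the threshold for a call, Krt10 (0.43, SE 0.200, adjusted p = 0.1) did not pass, and Lor, the gene of loricrin, had a log2 fold change of -0.02 (SE 0.197). The 6 macrophage markers (Adgre1, Csf1r, Cd68, Mrc1, C1qa and C1qb) summed to 482 to 558 CPM after PBS, 720 to 1000 after IL-17A, 1140 to 1250 after IL-36γ and 1030 to 1130 after both.

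In each group, the mouse with the highest summed stefin A level was also the highest for the mature neutrophil and the activated keratinocyte list. These were PBS mouse 2, IL-17A mouse 1, IL-36γ mouse 2 and mouse 1 of the combination. IL-17A mouse 1, with 480 CPM of stefin A reads, had 62.5 CPM of neutrophil markers and 2570 CPM of activated keratinocyte genes, against 22.5 and 33.1 CPM and 871 and 829 CPM in mice 2 and 3. PBS mouse 2 had 16.2 CPM of neutrophil markers against 11.1 and 8.03 CPM in PBS mice 1 and 3. Its 748 CPM of activated keratinocyte genes stood beside 734 CPM in mouse 1 and 532 CPM in mouse 3. Krt6a, Krt6b and Krt16 were highest in mouse 2, with 59.7 CPM of Krt6b against 2.19 and 0.727 CPM in mice 1 and 3. Krt16 stood at 110 CPM there, against 29.9 and 8.55 CPM. Krt17, Sprr1a, Sprr1b, Tgm1 and Tgm3 were highest in mouse 1. The 558 CPM of macrophage markers in PBS mouse 2 stood beside 526 and 482 CPM in mice 1 and 3. The epidermal markers were highest in PBS mouse 1 (17900 CPM against 12200 in mouse 2 and 11900 in mouse 3). The part of either cell type in the stefin A levels was not tested, and it cannot be told apart in RNA of bulk ear tissue.

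**Figure D4:**
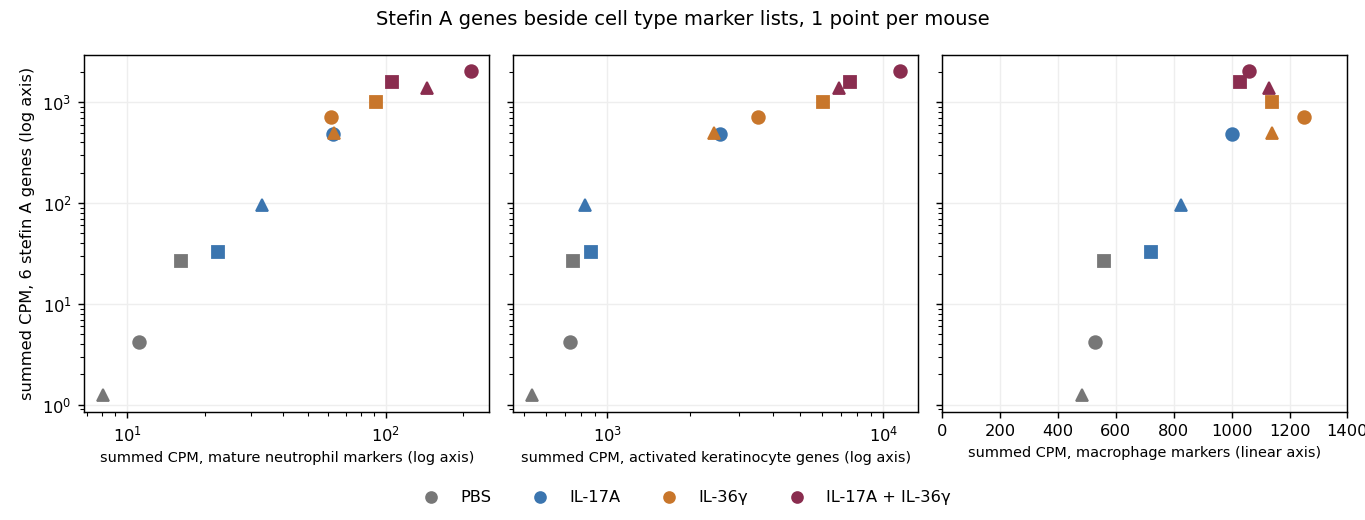
Summed CPM of the 6 stefin A genes (log axis) against the summed CPM of mature neutrophil markers, activated keratinocyte genes (both log axes) and macrophage markers (linear axis), 1 point per mouse with circles, squares and triangles for mice 1, 2 and 3. IL-17A mouse 1 (480 CPM of stefin A reads) lies beside the IL-36γ mice in the first 2 panels, and the macrophage markers of the combination (1030 to 1130 CPM) do not exceed those of IL-36γ (1140 to 1250 CPM).

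The remaining stefin genes were not used to choose the 6. Their list was written with earlier results of these data known, so their calls are also given as a description. Of 5 such genes, 4 were called higher in the combination against PBS, 3 with IL-36γ and 0 with IL-17A in edgeR, although 4 had an unadjusted p-value below 0.05 there. The share of all tested genes called higher was 7.35%, 5.11% and 1.07% in these comparisons. The count of 4 ranged from 3 to 5 when single libraries were left out. Cstdc6, which lies between Stfa1 and Cstdc5, had 2, 8 and 1 reads in PBS ears and 373, 218 and 189 reads after both cytokines, a log2 fold change of 6.46 (SE 1.01, adjusted p = 0.000392, edgeR). Cstdc4 had 1, 8 and 0 reads in PBS and 129, 46 and 76 reads after both (5.09, SE 0.966, adjusted p = 0.00134, edgeR). Csta2 had 2, 0 and 0 reads in PBS and 33, 22 and 15 after both, so that 70 reads stood against 2. Corrected for depth this was a 44.1-fold ratio with an exact 95% counting interval of 11.8 to 371, which covers counting error only, and the adjusted p was 0.00123 in edgeR. Outside the combination Csta2 had at most 15 reads, so it had enough reads to be tested only through that group. Its calls, which are among the 4 and the 3 above, are therefore no test of this gene. The log2 value of Csta2 drawn in the plots of fold changes is a fitted one that depends on the prior count. Cstdc6 shared 20.2% of its 76-base windows with Cstdc5 and its reads were 0.45% to 1.25% of those of Cstdc5 in the cytokine-injected ears, and Cstdc4 and Csta2 shared 23.0% and 13.8% of their windows with each other. These 3 genes are therefore not fully separate measurements.

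Csta1 and Cstb were already well expressed in PBS ears. Csta1, at the edge of the cluster, stood there at 93.1, 79.5 and 67.6 CPM. It was measured at 78.3, 62.1 and 96.9 CPM after IL-17A, at 143, 137 and 103 CPM after IL-36γ and at 227, 111 and 162 CPM after both. Its log2 fold change was -0.02 (SE 0.237, adjusted p = 0.969) after IL-17A, 0.67 (SE 0.237, adjusted p = 0.0525) after IL-36γ and 1.06 (SE 0.238, adjusted p = 0.00383) after both, all from edgeR. The call after both was close to the threshold and was lost without PBS mouse 3 (0.96), without mouse 1 of the combination (0.77) and with scaling by library size alone (0.91). Cstb, the stefin B gene on another chromosome and a general cathepsin inhibitor, stood at 84.8, 55.6 and 55.2 CPM in PBS and 135, 126 and 113 CPM after both. Its log2 fold change of 0.93 (SE 0.168, adjusted p = 0.000956, edgeR) was below the threshold for a call.

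Type 2 cystatins are the secreted relatives of the stefins. Of 10 genes of this class 3 had enough reads, and 0 were called after IL-17A + IL-36γ against PBS by edgeR (1 at an unadjusted p-value below 0.05) or DESeq2. Cst3, the gene of cystatin C, had a log2 fold change of -0.33 (SE 0.117, adjusted p = 0.0376), Cst6, the gene of the epidermal cystatin M/E, of -0.24 (SE 0.229, adjusted p = 0.41), and Cst7, the gene of the leukocyte cystatin F, of -0.19 (SE 0.238, adjusted p = 0.529), all from edgeR.

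The genes of the target proteases showed smaller fold changes. Of 10 papain-type cathepsin genes, 2 were called higher and 0 lower in edgeR after IL-17A + IL-36γ against PBS, where 7.35% of all tested genes were called higher and 6.06% lower. Ctsc, the cathepsin that activates the serine proteases of granulocytes, rose by 1.48 (SE 0.127, adjusted p = 1.29e-05, edgeR) on the log2 scale, from 91.8 ± 9.26 CPM to 257 ± 8.21 CPM (SD, n = 3). Ctss, the cathepsin of antigen-presenting cells, rose by 1.33 (SE 0.195, adjusted p = 0.000252, edgeR), from 127 ± 16.2 to 320.2 ± 62.3 CPM. The log2 fold change was 0.79 (SE 0.116) for Ctsb, 0.70 (SE 0.0844) for Ctsh and 0.50 (SE 0.142) for Ctsl, which encode the cathepsins B, H and L and were below the threshold for a call. In the other direction 2 genes passed the adjusted p-value but not the fold threshold (2 lower at an unadjusted p-value below 0.05). Ctsf, the gene of cathepsin F, stood at 52.5 ± 1.69 CPM in PBS ears and 27.3 ± 1.82 CPM after both (SD, n = 3), a log2 fold change of -0.94 (SE 0.126, adjusted p = 0.000146, edgeR). Ctsk, the gene of the collagen-degrading cathepsin K, stood at 160.5 ± 13.8 and 106 ± 4.70 CPM, a log2 fold change of -0.595 (SE 0.126, adjusted p = 0.00265, edgeR). For both genes, and for Ctsw (-0.44, SE 0.219, adjusted p = 0.125, edgeR), every mouse of the combination lay below every PBS mouse. The share of all tested genes separated in this direction was not computed. In 5 of the 10 genes every mouse of the combination lay above every PBS mouse, which held for 27.0% of all tested genes. The 10 genes together stood at 1160 to 1340 CPM in PBS ears and 1950 to 2090 CPM after both cytokines. The 6 stefin A genes went from 1.24 to 26.8 CPM in PBS ears to 1390 to 2050 CPM in the combination.

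Genes just outside the cluster were examined to see how far the change extended along the chromosome. Within 500 kb on either side lay 18 protein-coding genes, of which 17 were tested, and 5 were called higher after IL-17A + IL-36γ against PBS, beside 7.35% of all tested genes. These were Fam162a (2.02, SE 0.227), Hcls1 (1.55, SE 0.125), Dtx3l (1.37, SE 0.137), Parp9 (1.36, SE 0.166) and Parp14 (1.28, SE 0.188), the last 3 of which are known as interferon-stimulated genes. The median log2 fold change of the 17 genes was -0.04. Casr, the tested gene nearest to Stfa3, had a log2 fold change of -0.93 (SE 0.369, adjusted p = 0.0591, edgeR), and Ccdc58, the nearest beyond Csta1, of 0.70 (SE 0.121, adjusted p = 0.000722, edgeR).

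**Figure D5:**
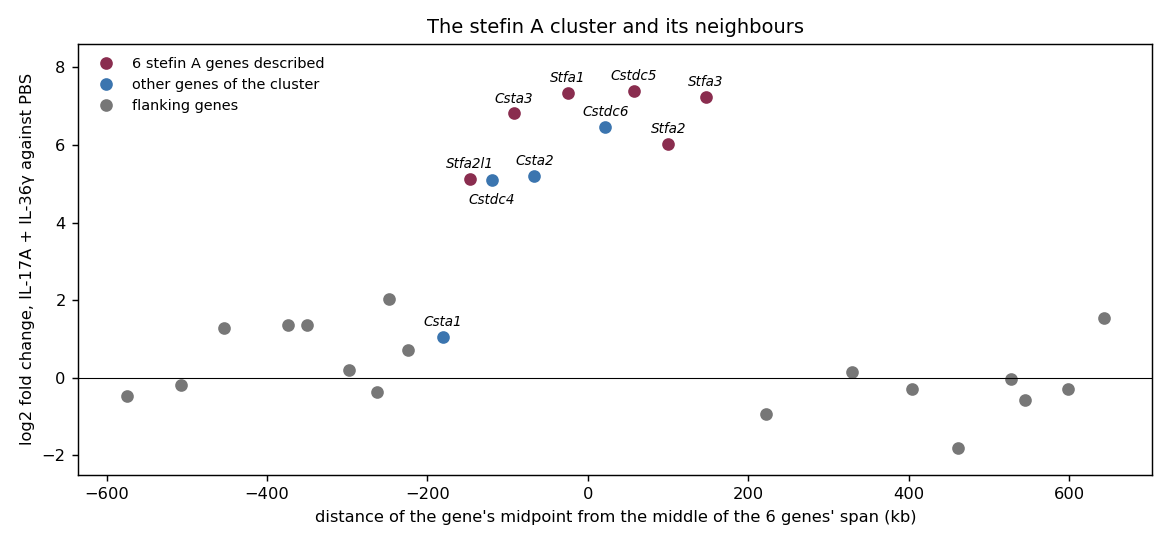
log2 fold change after IL-17A + IL-36γ against PBS of the genes in and around the stefin A cluster, by the distance of each gene's midpoint from the middle of the 6 genes' span (kb). The 6 genes, with Cstdc6, Cstdc4 and Csta2, lie at 5.09 or above, and the 17 flanking genes lie at 2.02 or below.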

How the data were processed

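RNA of the ears was made into stranded libraries, and the deposited table holds raw counts per Ensembl gene, which the authors made from paired-end reads of 76 bases with STAR 2.5.2b on mm10 and featureCounts of Subread 1.5.1. The handling of multi-mapping reads and of strand is not given in the sources used here. The deposited tables of the authors' own comparisons (fold changes and p-values) were used only to pair identifiers with symbols. Libraries were grouped by the sample labels, and no pair of libraries in a group was a copy, as the chi-square per gene was 7.03 or more. Labels do not say whether mice were processed together.

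Counts were analysed in R 4.3.3 with edgeR 4.0.16. Genes with low counts were removed with filterByExpr (minimum count 10), TMM factors scaled the libraries, and a quasi-likelihood test with Benjamini-Hochberg adjustment over the 19408 genes was applied in 1 fit of the 4 group means. The script was tested on simulated data. The SE of a log2 fold change was taken as its size divided by the root of the F statistic. The interaction is the change by IL-17A with IL-36γ minus that without. Likeness is Pearson's r of log2 CPM (prior count 2). The excess adds the PBS mean to the combination mean (CPM) and subtracts the means of both single cytokines. Levels per kilobase use the union of GENCODE vM21 exons. Named were the 6 genes, the called genes of each list (at most 4 with the largest change, and the fifth flanking gene beside them), Cstb, Csta1, Ctsb, Ctsl, Ctsh, Ctss, the markers, and the most alike genes, of which 2 are not reported here. The nearest tested neighbours on each side, all 3 tested type 2 cystatins, Ctsf, Ctsk and Ctsw were added after their values were seen. The 6 genes and all lists were chosen with earlier results of these data known. Alternatives were other size factors, no scaling, other filters, DESeq2 1.42.0, only the groups compared, no fold threshold, a replicate block and leaving out each library. With 3 mice a group, p-values rest on the spread between these mice, estimated over all 4 groups and with information shared across genes.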

Additional observations from a re-analysis of the deposited data

How the results depend on the processing

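The number of the 6 genes called higher after IL-17A against PBS was 3, and became 6 without a filter on low counts and 0 with only the groups compared. It ranged from 0 to 4 when single libraries were left out, with 0 without PBS replicate 3 or IL-17A replicate 1. For the combination against IL-17A, 5 genes became 3 with DESeq2 and 3 to 6 when single libraries were left out, with 3 without IL-17A replicate 2, IL-17A replicate 3 or replicate 1 of the combination. When at least 10 counts were required in every library, Stfa3 and Cstdc5 were the 2 genes left to test, and 2 were called after IL-36γ against PBS, 2 in the combination against PBS and 2 against IL-17A, since fewer genes were tested; 1 of the other stefin genes was called there. Without the fold threshold, 1 type 2 cystatin, 8 cathepsins and 11 flanking genes passed in the combination against PBS. The cause of the other changes was not tested. The sign turned in 4 cases, all without a call and all when a library was left out: the interaction of Stfa2 (range -4.70 to 0.76) and Csta3 (-7.77 to 0.51), both positive only without IL-17A replicate 1, and the change of Csta1 by IL-17A (-0.19 to 0.11), positive without PBS replicate 1 or IL-17A replicate 2. Scaling by library size alone moved the median of all genes to -0.168 in the combination against PBS, and left the 6 genes called higher there. Over all genes that scaling changed the split of 1426 higher and 1177 lower calls to 1204 and 1667, that of IL-36γ against PBS from 992 and 385 to 822 and 698, and that of IL-17A against PBS from 208 and 199 to 129 and 469. The labels do not tie mice of the same number to each other. Deviations of same-numbered mice correlated above 0.1 in 9 of 18 pairs (range -0.199 to 0.352) and most with their own number in 11 of 18. Between IL-36γ and the combination all 3 pairs were above 0.1 (0.128, 0.188 and 0.24), in the other comparisons not all. The replicate block left 3, 6, 6, 5 and 0 genes called in the 5 comparisons.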
